A study of Homo sapiens with 4 samples.

Results

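The 10 genes described here make, or hold back, the mineral of bone: ALPL, PHOSPHO1, ENPP1, ANKH, IBSP, SPP1, DMP1, MEPE, PHEX and SPARC. Members were taken by symbol, as every probe set whose platform annotation gives exactly 1 gene symbol equal to a member. All 10 genes were found, with 1 probe set each, among 36176 probe sets with 1 symbol and 135750 probe sets in all. RNA was measured on 4 Affymetrix arrays of 2 human osteosarcoma cell lines, Saos-2 and MG-63. In each line, 1 array held RNA of cells given sh-circ_0000073, and 1 array held RNA of cells given the control sh-NC. The study names sh-circ_0000073 as a short hairpin RNA directed at the junction of the circular RNA hsa_circ_0000073. The level of the circular RNA itself was not analysed here. The sample titles instead read si-hsa_circ_0000073 and si-NC. Which form of RNA was given cannot be told from the labels, and the word hairpin below follows the study's naming. By the study's methods all 4 samples were of transfected cells. None is of untransfected cells, and each line is a single cultured line. The study asked what the loss of the circular RNA does to gene expression in osteosarcoma cells.

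Bone mineral is calcium phosphate that grows on collagen, and it begins in small vesicles shed by osteoblasts. Phosphatases supply the phosphate, whereas pyrophosphate, made or carried out of the cell by other members, blocks crystal growth. Acidic secreted phosphoproteins of the SIBLING family then bind the mineral and guide or restrain it. Tissue-nonspecific alkaline phosphatase, the product of ALPL, is the usual enzymatic marker of an osteoblast, and Saos-2 is commonly used as a line that can mineralize its matrix in culture.

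The values are log2 signals, and a difference of 1 between them is a doubling of signal. The medians over all probe sets were 3.74 to 3.75 on the 4 arrays and the upper quartiles 4.99 to 5.09, which gives a sense of the level of dim probe sets, because no detection call was used. The line checks had the pattern known for these lines. RB1, lost in part in Saos-2, had 5.78 and 6.17 in Saos-2 and 11.91 and 11.90 in MG-63, and CDKN2A, lost in MG-63, had 14.04 and 11.90 in Saos-2 and 2.94 and 2.99 in MG-63. A pair of levels for a line is that of its sh-circ_0000073 array and that of its sh-NC array. BGLAP and ABCC6 were not analysed here. Of the osteoblast markers, RUNX2, the master transcription factor of the lineage, had 16.39 and 16.53 in Saos-2 against 7.72 and 7.57 in MG-63. SP7, which acts after RUNX2, had 8.66 and 9.77 in Saos-2 against 2.94 and 2.83 in MG-63, so that this defining marker was near the array median in MG-63. Of 11 markers of epithelial, blood, endothelial, cartilage and fat cells, 9 lay between 2.78 and 5.80 on every array. Of the other two, the epithelial gene EPCAM had 9.59 and 9.45 in Saos-2 and 3.43 and 3.26 in MG-63, and KRT19 had 5.04 and 5.19 in Saos-2 and 7.61 and 6.73 in MG-63. The log2 signals of the 11 markers summed to 50.12 and 49.36 in Saos-2 and to 47.00 and 44.82 in MG-63, and their part in the differences below was not tested.

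**Figure D1:**
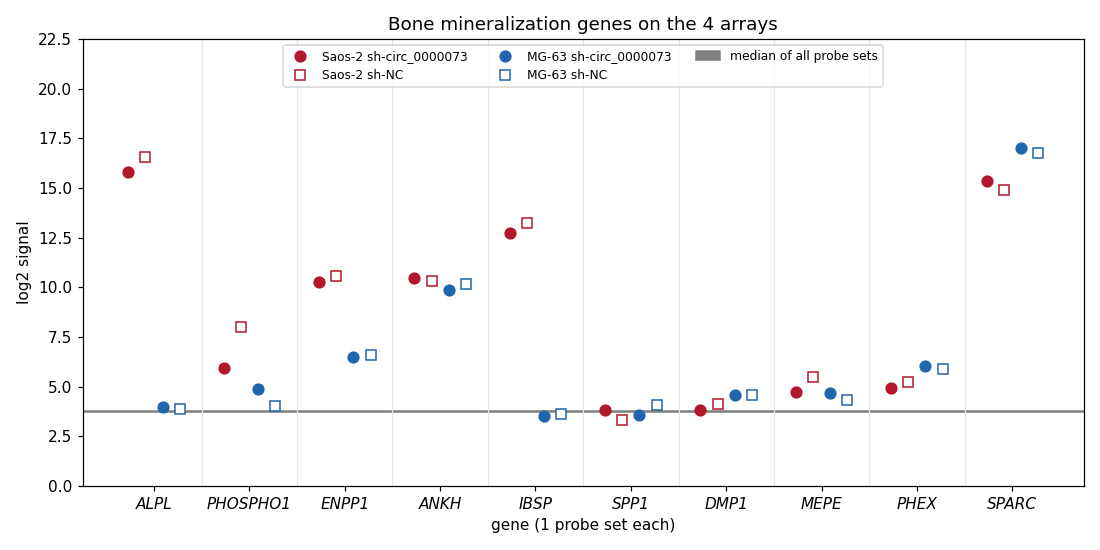
Log2 signal (vertical axis) of the 10 bone mineralization genes on each of the 4 arrays, in red for Saos-2 and blue for MG-63, filled for sh-circ_0000073 and open for sh-NC, with the medians of all probe sets as a grey line. ALPL and IBSP lie far above the line in Saos-2 and on it in MG-63, whereas SPP1 and DMP1 lie near it on all 4 arrays; points are to be compared within a gene, since probe sets differ in brightness.

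The phosphatases of mineral formation were higher in Saos-2. ALPL, whose enzyme splits pyrophosphate and frees phosphate at the cell surface, had a log2 signal of 15.81 with sh-circ_0000073 and 16.57 with sh-NC in Saos-2, against 3.97 and 3.89 in MG-63. The MG-63 values were close to the array median and the Saos-2 values were among the bright ones, with 11.84 between the nearest arrays of the lines. In bulk RNA of this kind, fewer cells of a type and less RNA per cell cannot be told apart. ALPL was higher in Saos-2 by 12.26 (SE 0.31, adjusted p = 1.07e-06 from limma). Without a detection call, a signal near or below the array median is not shown to be above background, so this difference, and those of IBSP, SP7, DLX5, FAM20C and BGN, are measured values that can serve at most as lower bounds. PHOSPHO1, a phosphatase that releases phosphate from phosphocholine inside matrix vesicles, had 5.91 and 7.98 in Saos-2 and 4.87 and 4.02 in MG-63. Both Saos-2 arrays were above both MG-63 arrays, but the lines lay 3.96 apart on the sh-NC arrays and 1.04 apart on the sh-circ_0000073 arrays. The mean difference of 2.50 (SE 0.60) had an adjusted p of 0.0187 from limma. That call was lost without the MG-63 sh-NC array (2.08, adjusted p = 0.257), without the MG-63 sh-circ_0000073 array (2.93, adjusted p = 0.139) and without the Saos-2 sh-NC array (1.47, adjusted p = 0.124), and when all 135750 probe sets were tested (adjusted p = 0.0962). It held without the Saos-2 sh-circ_0000073 array (3.54, adjusted p = 0.0156). The fits without an array had line as their only term and left 1 line with a single array, which was assumed to vary like the other line.

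Of the genes that raise pyrophosphate outside the cell, the enzyme gene differed between the lines and the transporter gene was not called. ENPP1, which makes pyrophosphate from ATP, had 10.27 and 10.55 in Saos-2 and 6.48 and 6.57 in MG-63. The arrays of a line lay within 0.28 of each other, and the lines 3.70 apart at the nearest arrays. The difference was 3.89 (SE 0.28, adjusted p = 5.68e-05 from limma), a 14.8-fold higher signal in Saos-2. ANKH, a membrane protein through which ATP or pyrophosphate leaves the cell, had 10.46 and 10.33 in Saos-2 and 9.85 and 10.14 in MG-63. Its lines did not overlap, but the nearest arrays were only 0.19 apart, and the difference of 0.40 (SE 0.28) was not called (adjusted p = 0.369 from limma). The RefSeq gene table places ANKH over OTULIN, another protein-coding gene.

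Among the SIBLING genes, IBSP stood apart. IBSP encodes bone sialoprotein, an acidic protein that nucleates hydroxyapatite, and it had 12.73 and 13.23 in Saos-2 and 3.54 and 3.62 in MG-63. The MG-63 signals were below the array medians, and the lines were 9.11 apart at their nearest arrays. The difference was 9.40 (SE 0.29, adjusted p = 1.80e-06 from limma), again against signals not shown to be above background. SPP1, which encodes osteopontin, an inhibitor of crystal growth, had 3.84 and 3.34 in Saos-2 and 3.59 and 4.05 in MG-63. Its lines overlapped and every array was near the median of all probe sets, with a difference of -0.23 (SE 0.26, adjusted p = 0.614 from limma). DMP1, a matrix protein of osteocytes that promotes mineral and lowers the phosphate hormone FGF23, had 3.84 and 4.12 in Saos-2 and 4.56 and 4.56 in MG-63. MEPE, a SIBLING protein of osteocytes whose acidic peptide restrains mineral, had 4.72 and 5.47 in Saos-2 and 4.68 and 4.34 in MG-63. The lines of DMP1 and MEPE did not overlap, but by only 0.44 and 0.04, and neither difference was called, at -0.58 (SE 0.24, adjusted p = 0.132) for DMP1 and 0.59 (SE 0.33, adjusted p = 0.262) for MEPE, both from limma.

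PHEX encodes a membrane protease that degrades the mineral-inhibiting peptide of the SIBLING proteins, and its loss causes X-linked hypophosphataemia. Its signals were 4.93 and 5.24 in Saos-2 and 6.04 and 5.87 in MG-63. Both Saos-2 arrays were lower, but the difference of -0.87 (SE 0.29) was not called with an adjusted p of 0.0654 from limma, and had 0.0441 without the mean-variance trend. SPARC, also named osteonectin, a collagen- and calcium-binding glycoprotein abundant in bone, ran opposite to ALPL and IBSP. Its signals were 15.37 and 14.90 in Saos-2 and 16.99 and 16.75 in MG-63, bright on all 4 arrays, with the lines 1.38 apart at the nearest arrays. The difference was -1.74 (SE 0.17, adjusted p = 0.00025 from limma), a 3.33-fold lower signal in Saos-2.

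**Figure D2:**
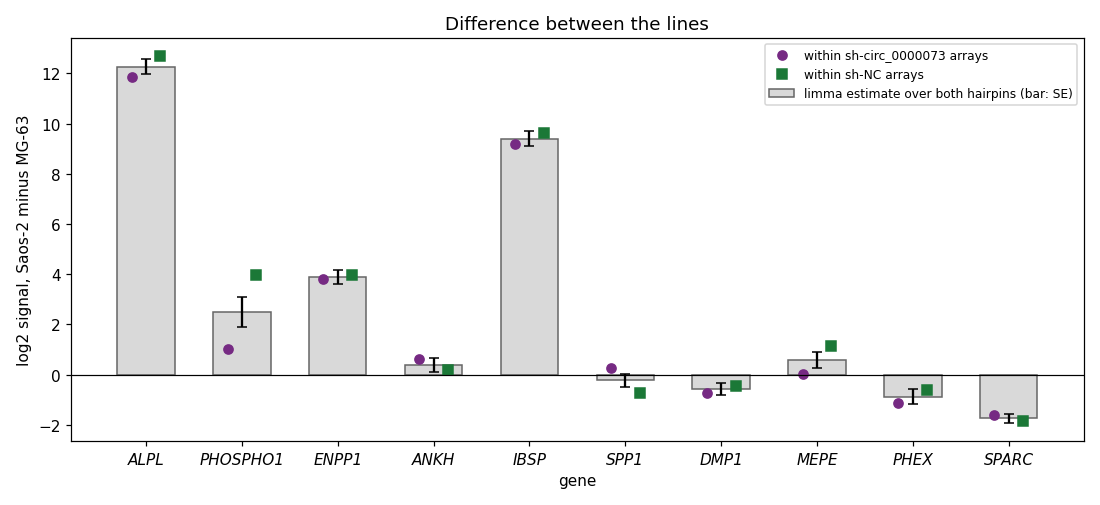
Log2 signal of Saos-2 minus MG-63 (vertical axis) for each gene, as the limma estimate over both hairpins (grey bars, with the standard error) and within the sh-circ_0000073 arrays (circles) and the sh-NC arrays (squares). The bars of ALPL and IBSP reach 12.26 and 9.40 and SPARC lies at -1.74, while the pair of points for PHOSPHO1 is spread from 1.04 to 3.96.

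By these counts 4 of 10 members rose in Saos-2 against MG-63 (ALPL, IBSP, ENPP1 and PHOSPHO1), where 11.9% of all tested probe sets did, and 1 of 10 fell (SPARC), where 13.7% did. Non-overlap of the arrays alone says less, since 26.1% of all probe sets had both Saos-2 arrays above both MG-63 arrays and 32.9% had both below, against 6 and 3 of the 10 members. The median size of the difference between the lines, without its sign, was 1.30 over the members and 0.33 over all probe sets. The background over all probe sets includes many dim ones, which were called less often. Among probe sets with a mean log2 signal of at least 6, limma called 7497 of 12091, 3542 of them higher in Saos-2 and 3955 lower. At that level 4 of 5 members were called, so the shares over all probe sets understate the background for bright genes. The 2 arrays of a line differ in hairpin and are the only replicates of that line here. Nothing says that they came from separate cultures. With line and hairpin as terms, 1 residual degree of freedom per gene is left before limma moderates the variances. That residual is how far the line difference changed between the hairpins, and the p-values measure this spread, not the spread between cultures of a line. In it, technical spread and a hairpin change that differs between the lines cannot be told apart.

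The SIBLING genes lie side by side on chromosome 4, in the order DSPP, DMP1, IBSP, MEPE and SPP1 among protein-coding genes of the RefSeq table, with SPARCL1 and PKD2 on either side. Of these 5 SIBLING genes only IBSP was called between the lines. DSPP, which encodes a dentin protein, had 5.80 and 5.58 in Saos-2 and 5.08 and 5.15 in MG-63 and was not called (0.58, SE 0.28, adjusted p = 0.194 from limma), whereas SPARCL1, a relative of SPARC, rose in Saos-2, with 5.79 and 5.02 in Saos-2 against 3.94 and 3.73 in MG-63 (1.57, SE 0.27, adjusted p = 0.00398 from limma). The promoters of 4 of these neighbours are shown because adjacent and related genes had such unequal levels, and that of ALPL because it had the largest difference of the members. The RefSeq promoter table of GRCh38.p14 held 9 of the 10 members, with PHEX missing. Each line gives the 250 bases before a transcription start on the gene's own strand, all of them the plus strand, with matches on either strand to TATAAA, the TATA box, and to CCAAT in capitals.
IBSP, chr4:87799304-87799553: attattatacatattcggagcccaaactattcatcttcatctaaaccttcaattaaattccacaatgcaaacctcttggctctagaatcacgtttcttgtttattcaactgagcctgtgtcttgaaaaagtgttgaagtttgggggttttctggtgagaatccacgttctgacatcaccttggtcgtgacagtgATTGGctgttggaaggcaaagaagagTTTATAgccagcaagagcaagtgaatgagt
DMP1, chr4:87650030-87650279: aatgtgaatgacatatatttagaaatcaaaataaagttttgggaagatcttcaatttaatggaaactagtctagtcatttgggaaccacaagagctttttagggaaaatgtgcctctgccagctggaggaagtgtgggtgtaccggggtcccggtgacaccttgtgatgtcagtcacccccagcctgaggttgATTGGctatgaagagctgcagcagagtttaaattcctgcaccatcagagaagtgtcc
MEPE, second of its start sites in the table, chr4:87832719-87832968: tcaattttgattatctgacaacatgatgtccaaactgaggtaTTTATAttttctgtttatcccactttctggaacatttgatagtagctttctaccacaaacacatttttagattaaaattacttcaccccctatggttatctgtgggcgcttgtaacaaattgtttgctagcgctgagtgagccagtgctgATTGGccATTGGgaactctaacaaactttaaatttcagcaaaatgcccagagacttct
SPP1, chr4:87975464-87975713: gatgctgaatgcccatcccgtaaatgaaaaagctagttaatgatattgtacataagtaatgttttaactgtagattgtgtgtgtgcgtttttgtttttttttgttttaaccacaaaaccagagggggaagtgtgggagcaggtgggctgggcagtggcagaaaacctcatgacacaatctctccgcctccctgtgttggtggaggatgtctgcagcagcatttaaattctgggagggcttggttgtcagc
ALPL, second of its 3 start sites in the table, chr1:21509173-21509422: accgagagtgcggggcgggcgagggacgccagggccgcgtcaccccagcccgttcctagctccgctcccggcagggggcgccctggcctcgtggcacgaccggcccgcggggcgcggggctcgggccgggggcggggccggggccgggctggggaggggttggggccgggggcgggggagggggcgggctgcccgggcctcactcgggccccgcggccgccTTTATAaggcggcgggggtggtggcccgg

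Read from these windows, CCAAT, read on the other strand, began 56 bases before the start of IBSP, 57 before that of DMP1 and 58 before that of MEPE, with another in MEPE at 51. SPP1 had none. IBSP and ALPL each had TATAAA, also on the other strand, 30 and 29 bases before the start, and MEPE had it at 208. The windows shown for ALPL and IBSP, the members with the widest gap between the lines, differed in composition. They had 83.6% G and C in ALPL and 40.0% in IBSP. The size of that contrast depends on the start site, since the other windows of ALPL had 60.4% and 49.6%. Those windows had neither TATAAA nor CCAAT, and the other window of MEPE had neither. The matches given for ALPL and MEPE therefore hold only for the start site shown. TATAAA on either strand was found in 10.7% of 35116 promoter windows of this length and CCAAT in 32.0%. The core motif of RUNX factors, TGTGGT on either strand, was found in 11.0% of windows. Among the members it was in DMP1, SPP1 and the shown window of MEPE, and none of these genes was called between the lines. A match is only a match of letters, and none of these sites was measured here.

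Within Saos-2 the hairpin against hsa_circ_0000073 went with lower signals of several members. PHOSPHO1 was at 5.91 with sh-circ_0000073 and 7.98 with sh-NC, a change of -2.07 or a 4.20-fold lower signal. Only 28 of 36176 probe sets, PHOSPHO1 included, had a change this low or lower in Saos-2. ALPL was 1.69-fold lower (-0.76) and MEPE 1.68-fold lower (-0.75), the ALPL change between bright signals and the MEPE change between 4.72 and 5.47, near the upper quartile of the array. IBSP was at -0.50, PHEX at -0.31, DMP1 at -0.28 and ENPP1 at -0.28, all within 1.5-fold. On the other side of 0 were SPP1 at 0.50, SPARC at 0.47 and ANKH at 0.13. Thus 3 of 10 members were more than 1.5-fold lower in Saos-2, where 5.22% of all probe sets were, and 0 of 10 were more than 1.5-fold higher, where 8.91% were. With 1 array per condition these changes have no replicate check and no p-value. The share of higher signals among all probe sets past 1.5-fold was 63.1% as deposited and 49.5% after quantile normalization, and under that scaling 4 members were past 1.5-fold, all lower, with IBSP at -0.65 as the added one.

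In MG-63, 9 of the 10 members were within 1.5-fold, and PHOSPHO1 had the opposite sign. Its signal was 4.87 with sh-circ_0000073 and 4.02 with sh-NC, a change of 0.85 or 1.80-fold. Both signals were dim, between the median and the upper quartile of their arrays. It was the only member past 1.5-fold in MG-63, so that 1 of 10 was higher, where 8.93% of all probe sets were, and 0 of 10 were lower, where 7.18% were. Opposite changes past 1.5-fold in the lines were seen for 0.998% of all probe sets. The remaining members lay between -0.46 for SPP1 and 0.34 for MEPE, with ALPL at 0.08, IBSP at -0.08 and DMP1 at 0.00. The median change of the members was -0.30 in Saos-2 and 0.04 in MG-63, beside 0.06 and 0.02 over all probe sets. A difference of the hairpin change between the lines could not be tested, because such a term leaves no residual degree of freedom on 4 arrays.

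**Figure D3:**
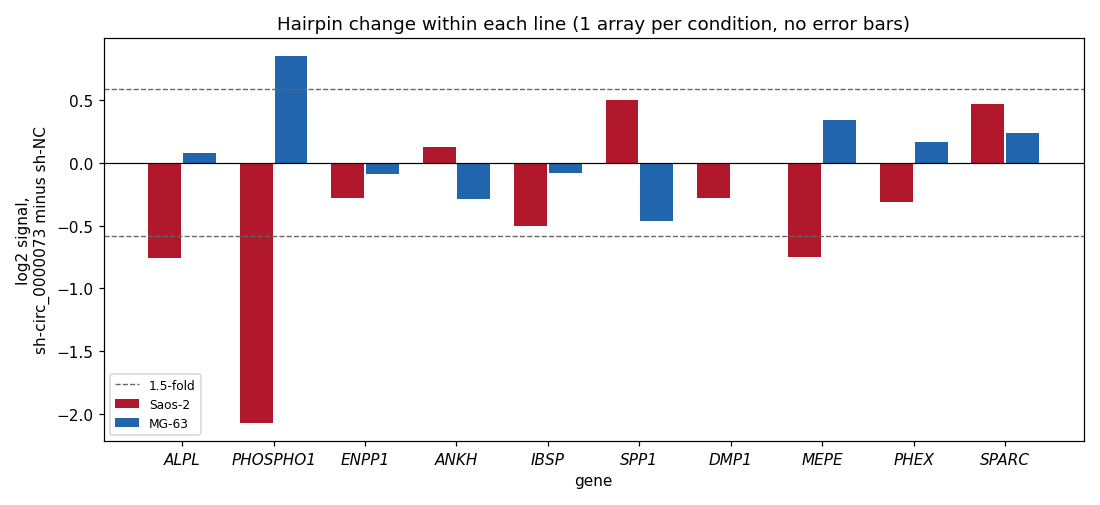
Change of log2 signal under the hairpin (sh-circ_0000073 minus sh-NC, vertical axis) for each gene in Saos-2 (red) and MG-63 (blue), with dashed lines at a 1.5-fold change and no error bars, since each bar rests on 1 array per condition. PHOSPHO1 stands at -2.07 in Saos-2 and 0.85 in MG-63, and ALPL and MEPE pass the line in Saos-2 alone.

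With the lines taken as replicates, no member passed the test for the hairpin. The mean change was -0.61 (SE 0.60) for PHOSPHO1, -0.34 (SE 0.31) for ALPL and -0.29 (SE 0.29) for IBSP. SPARC, the member whose signal was higher with sh-circ_0000073 in each line beyond 0.2 on the log2 scale, had 0.36 (SE 0.17, adjusted p = 0.711 from limma). limma called 0 of 10 members and 0.0% of all probe sets at an adjusted p under 0.05, and at an unadjusted p under 0.05 the counts were 0 of 10 and 2628 of 36176. Beside these values, the 4 measured osteoblast markers had hairpin changes of both signs in Saos-2, with -1.42 for the transcription factor DLX5, at 12.80 with sh-circ_0000073 and 14.22 with sh-NC, -1.11 for SP7, -0.14 for RUNX2 and 0.61 for COL1A1. Their part in the changes of PHOSPHO1 and ALPL was not tested.

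Other genes of the pathway differed between the lines in both directions. Of 39 measured genes in 5 further lists, 9 rose and 13 fell in Saos-2 against MG-63, beside the shares of 11.9% and 13.7% over all probe sets, which are also the background of the counts per list. Among genes of phosphate, pyrophosphate and matrix vesicles, 2 of 8 rose and 5 fell. NT5E, the ectonucleotidase that makes adenosine and whose loss calcifies arteries, had 10.51 and 11.30 in Saos-2 and 17.64 and 18.54 in MG-63 (-7.19, SE 0.19, adjusted p = 1.17e-06 from limma). The phosphate importer SLC20A2 had 9.98 and 9.49 in Saos-2 against 14.88 and 14.96 in MG-63 (-5.19, SE 0.26), the annexin ANXA6 differed by -2.28, and the phosphate exporter XPR1 by 1.89, all of them called, while the importer SLC20A1 was at 13.86 and 13.54 in Saos-2 and 13.85 and 13.73 in MG-63 and was not. With the hairpin, NT5E had a change of -0.79 in Saos-2 and -0.90 in MG-63, while ANXA6 had 0.97 in Saos-2 and 0.05 in MG-63. SLC20A2 had 0.49 in Saos-2 and -0.08 in MG-63, and SLC20A1 had 0.32 in Saos-2 and 0.12 in MG-63.

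Of 8 other bone matrix genes, 2 rose and 4 fell in Saos-2. BGN, which encodes the proteoglycan biglycan, was at 3.38 and 2.99 in Saos-2 and 16.76 and 16.93 in MG-63, a difference of -13.66 (SE 0.29, adjusted p = 6.43e-07 from limma). The signals of BGN in Saos-2 were below the array medians. Decorin (DCN) differed by -4.61 and fibronectin (FN1) by -2.16. The chains of collagen I went apart, since COL1A1 rose by 1.51 (SE 0.28, adjusted p = 0.00571) and COL1A2 fell by 1.59 (SE 0.24, adjusted p = 0.00205), both from limma. A further probe set of COL1A1 had -0.56 and was not called, and a further one of COL1A2 had -0.83 and was not called, so that COL1A1 rests on the brighter probe set. With the hairpin the changes were 1.24 in Saos-2 and 0.21 in MG-63 for FN1, and 0.96 in Saos-2 and -0.40 in MG-63 for the keratan sulphate proteoglycan OMD. DCN had -0.44 in Saos-2 and 0.71 in MG-63, and the brighter COL1A1 probe set had 0.61 in Saos-2 and 0.00 in MG-63. The dimmer COL1A1 probe set had 0.21 in Saos-2 and 1.34 in MG-63. The brighter COL1A2 probe set had 0.17 in Saos-2 and 0.62 in MG-63, and the dimmer one -0.67 in Saos-2 and 0.18 in MG-63.

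Of 11 genes that process these matrix proteins or set phosphate through hormones, 3 rose and 3 fell in Saos-2. FAM20C, the kinase that phosphorylates SIBLING proteins in the secretory pathway, was at 2.98 and 3.37 in Saos-2 and 10.10 and 10.82 in MG-63 (-7.29, SE 0.29, adjusted p = 4.10e-06 from limma). Thus the kinase was near or below the array median in the line in which IBSP was bright. BMP1, the protease that cleaves DMP1 and procollagen, differed by 3.89 (SE 0.29), the Wnt inhibitor DKK1 by -7.79 (SE 0.26) and the receptor FGFR1 by -4.57 (SE 0.30), each called. A further, dimmer probe set of DKK1 was also called, at -2.38 (SE 0.31). GALNT3, which glycosylates and so protects FGF23, was at 7.40 and 9.77 in Saos-2 and 5.36 and 6.14 in MG-63, with hairpin changes of -2.37 in Saos-2 and -0.78 in MG-63. FAM20C had a hairpin change of -0.39 in Saos-2 and -0.72 in MG-63, and FGFR1 of 0.72 in Saos-2 and -0.01 in MG-63. VDR, the vitamin D receptor, did not separate the lines (0.18, SE 0.25, adjusted p = 0.696 from limma) and had higher signals with the hairpin in both, at 0.79 for Saos-2 and 0.90 for MG-63. FGF23, SOST and KL were under 4.1 on every array. Of 3 other inhibitors of mineral growth, MGP alone was called, and its signals were under 4.1 on all arrays.

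Most paralogues of the members were dim. ALPP, ALPG and ALPI, the placental, germ cell and intestinal alkaline phosphatases, were between 2.86 and 4.93 on all arrays and none was called, against 12.26 for ALPL. ENPP2, which encodes autotaxin, rose with ENPP1 (4.90, SE 0.28, adjusted p = 1.94e-05 from limma), with 14.05 and 14.13 in Saos-2 and 9.54 and 8.85 in MG-63, but a further probe set of it had -0.01 and was not called. PHOSPHO2, the relative of PHOSPHO1, was under 4 on every array and was not called, and of 9 paralogues only ENPP2 and SPARCL1 were. SMOC2, a relative of SPARC, had 5.0 and 5.14 in Saos-2 and 6.06 and 5.40 in MG-63 and was not called (-0.66, SE 0.31, adjusted p = 0.181 from limma). With the hairpin, the brighter ENPP2 probe set had -0.08 in Saos-2 and 0.69 in MG-63, and the dimmer one 0.04 and 0.10. SMOC2 had -0.14 in Saos-2 and 0.66 in MG-63. The dim PHOSPHO2 had 0.11 in Saos-2 and -0.69 in MG-63, and SPARCL1 had 0.77 in Saos-2 and 0.21 in MG-63.

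**Figure D4:**
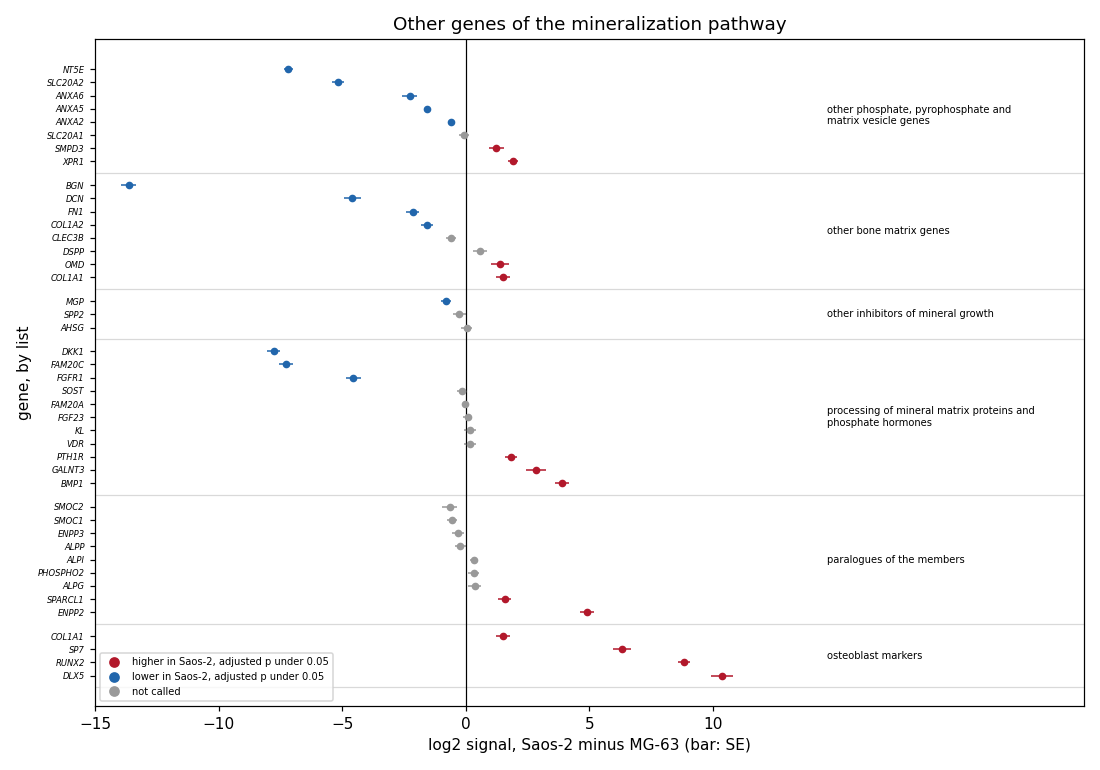
Log2 signal of Saos-2 minus MG-63 (horizontal axis, with the standard error) for the other genes of the pathway and the osteoblast markers, 1 row per gene and grouped by list, in red where limma called a gene higher in Saos-2, in blue where lower and in grey where not called. BGN lies farthest to the left at -13.66 and DLX5 farthest to the right at 10.36.

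The genes most like ALPL and IBSP over the 4 arrays were found by the Euclidean distance between their log2 signals, each taken relative to its own mean. For ALPL these were HAPLN1, a link protein of hyaluronan matrix, at a distance of 0.723, AJAP1, a junction protein, at 0.931, and VSNL1, a neuronal calcium sensor, at 1.31. HAPLN1 had 17.13 and 17.85 in Saos-2 and 4.40 and 5.05 in MG-63, with hairpin changes of -0.72 in Saos-2 and -0.65 in MG-63, where ALPL had -0.76 in Saos-2 and 0.08 in MG-63. AJAP1 had 0.28 and VSNL1 -0.20 in Saos-2. For IBSP they were the noncoding RNA LINC01060 at 0.414, QPCT, an enzyme that cyclizes glutamine at peptide ends, at 0.586, and RUNX2 at 0.658. With 4 arrays, 2 per line, the distance is set mainly by the difference between the lines.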

How the data were processed

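Total RNA was extracted with TRIzol, prepared with a GeneChip WT Pico Reagent Kit and hybridised, 1 array per condition. Per the submitters' processing notes, the authors used Affymetrix Expression Console, which gave the deposited table of log2 signals. For its version, summarisation and background correction, nothing is given in the sources used here, and their effect on the values was not tested. Samples were grouped by their titles. The 10 members, the gene lists and the tests were chosen with earlier results of these data known.

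Gene names came from the platform annotation, and probe sets with 1 symbol (36176) were tested. limma 3.58.1 in R 4.3.3 was fitted to the log2 signals with line and hairpin as terms and a mean-variance trend, and p-values were adjusted over all 36176 by Benjamini-Hochberg at 0.05. Within a line, changes past 1.5-fold were counted, with no test. Alternatives were other scalings, a minimum level, all probe sets, other terms, no trend, means per gene, a 2-fold size and leaving out each array. The fit was also run on simulated arrays as a check of the code. These held no hairpin change that differs between the lines, so they do not check the p-values given here. Where a listed gene had several probe sets, the one with the highest mean stood for it.

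Named are all members, the line checks and, of each list, the up to 4 genes with the largest difference between the lines or hairpin change at a log2 signal of at least 6, and the 3 genes nearest to ALPL and IBSP, leaving out XIST and genes of the Y chromosome. DSPP, SPARCL1, MGP, PHOSPHO2, ALPP, ALPG, ALPI, FGF23, SOST and KL were chosen after their values were seen. Tables were handled in Python 3.11.15 with pandas 2.3.3 and numpy 2.4.6.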

Additional observations from a re-analysis of the deposited data

Results flagged for a closer look

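PHOSPHO1 was singled out because its hairpin change had opposite signs in the 2 lines, with -2.07 in Saos-2 and 0.85 in MG-63, each past 1.5-fold. The difference between these changes, -2.92 on the log2 scale, was not tested, since each change rests on 1 array per condition. The MG-63 signals of 4.87 and 4.02 were dim, between the median and the upper quartile of their arrays.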

How the results depend on the processing

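The differences of ALPL, IBSP, ENPP1 and SPARC between the lines kept their direction and their call under every alternative that gave a test. PHOSPHO1 lost its call as given above, and PHEX gained one without the mean-variance trend. Leaving out 1 array at a time, with line as the only term, gave 4227 called probe sets without the MG-63 sh-circ_0000073 array, 4349 without MG-63 sh-NC, 4385 without Saos-2 sh-NC and 4628 without Saos-2 sh-circ_0000073, against 8463 with all arrays and the same term (9280 with the hairpin term), and left 4 to 5 members called. SPP1, not called, moved between -0.48 and 0.02 in these fits. Its mean hairpin change of 0.02 turned to -0.02 after centring and -0.001 after quantile normalization. For the hairpin over both lines, limma called 27 probe sets after quantile normalization and 20 when only those with a mean log2 signal of at least 6 were tested, against 0, and none was a member. At 2-fold, 1177 probe sets and 1 member (PHOSPHO1) passed in Saos-2, and 1371 and 0 in MG-63. With a log2 signal of at least 6 on 1 of the 2 arrays, 3176 of 12410 probe sets and 2 of 6 members passed 1.5-fold in Saos-2, without MEPE. In MG-63 3376 of 12523 probe sets and 0 of 4 members did. All 40 hairpin values of members within a line moved by less than the moderated standard deviation under centring and quantile normalization. The hairpin comparison over both lines was paired by line, since the line was its block. No pairing of replicates within a line was possible, because each condition had only 1 array there. The number of arrays, 1 per condition, limits the precision, and dim genes such as SPP1 and DMP1 have little room to show a decrease. The decrease of MEPE in Saos-2, from 5.47 with sh-NC to 4.72 with sh-circ_0000073, also lay between dim signals.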
